A study of Bos taurus with 17 samples.

Results

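Connexins are the proteins that build the gap junctions joining cumulus cells, the somatic companions of the oocyte, to each other and to the oocyte itself. Probes of the Agilent bovine array were taken when the array named them GJA1, GJA4, GJA5, GJB1, GJB2, GJB5 or GJC1, or described them as a gap junction protein or connexin of that name. This gave 8 of the 21475 non-control probes. The probe that the array names GJC1 (A_73_110631) is GJD3 under the current RefSeq gene name, so the probe of the current GJC1, connexin 45 (A_73_110726), was added, which makes 9 probes of 8 genes, among 19788 gene names on the array. GJA5 had 2 probes. The GJA4 probe, the GJB2 probe and 1 of the GJA5 probes (A_73_109837) carry their names from the description on the array.

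RNA came from cumulus cells of 3 stages, and each of the 17 samples was hybridised to 1 array. NC1 cells were the compact cumulus of immature prophase I oocytes from 6 prepubertal calves aged 3 to 6 months, whose breed the labels do not give. C1 cells were the compact cumulus of immature prophase I oocytes from 6 adult cows of different ages. Both were aspirated after slaughter. C2 cells were the expanded cumulus of metaphase II oocytes from 5 cycling, non-lactating Holstein cows aged 3 to 5 years, collected by ovum pick-up from large follicles after progestagen implants, superovulation with an FSH/LH preparation and prostaglandin F2α. NC1 and C1 differed in the age of the animals as well, and C2 differed from both in hormone treatment, follicle size and way of collection, so that these and the stage cannot be told apart. The labels name the source as ovarian follicles, and the study's methods name cumulus cells separated mechanically from the oocyte.

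Connexins assemble into a hemichannel, and hemichannels of neighbouring cells dock to form a channel that passes ions and small molecules such as cyclic nucleotides. GJA1 encodes connexin 43, the main connexin between granulosa and cumulus cells. GJA4 encodes connexin 37, known above all from the junctions between the oocyte and its cumulus cells, across which cyclic GMP reaches the oocyte and holds it in meiotic arrest. GJC1 (connexin 45) and GJD3 are further members, GJA5 (connexin 40) is known from arterial endothelium, and the beta connexins GJB1, GJB2 and GJB5 are known from liver, from epithelia and from skin and placenta.

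The probes of the 4 connexins that passed the detection filter are shown because each stage comparison below rests on what these 60 bases capture. They are the designed array oligonucleotides, written 5′ to 3′ in lower case with no part marked.
GJA1 (A_73_109553): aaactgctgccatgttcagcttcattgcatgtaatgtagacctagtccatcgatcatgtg
GJA4 (A_73_108121): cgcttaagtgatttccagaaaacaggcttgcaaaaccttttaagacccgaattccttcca
GJC1 (A_73_110726): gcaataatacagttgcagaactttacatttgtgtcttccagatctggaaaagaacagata
GJB1 (A_73_107096): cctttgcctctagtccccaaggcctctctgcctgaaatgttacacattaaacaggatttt
Among the 6 connexin probes whose sequence was at hand, which are these 4, GJB5 and 1 of GJA5, the longest run of bases shared by any of the 15 pairs, on either strand, was 5 to 8 bases. The GC content of the 4 shown was 43.3% for GJA1, 41.7% for GJA4, 35% for GJC1 and 45% for GJB1, beside a median of 43.3% over the 15256 probes with a sequence.

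The C2 arrays did not form an even group. Over all 13865 valid probes, C2 replicates 1 and 5 differed by an SD of 0.444 on the log2 scale and replicates 3 and 4 by 0.512, while every other pair of C2 arrays differed by 1.05 to 1.27. Pairs of NC1 arrays differed by 0.431 to 0.694 and pairs of C1 arrays by 0.453 to 0.756. C2 replicates 3 and 4 were also the 2 C2 arrays of the second scan day. Results are therefore also given with these close pairs averaged into 1 sample each, a choice made after the values were seen. Each of the 6 slides held 1 NC1 and 1 C1 array, and 5 of them held 1 C2 array. Of 10 cumulus and granulosa markers, all 10 were well above background on every array, and between C1 and C2 the expansion genes TNFAIP6, PTX3 and HAS2 rose by 6.63, 4.98 and 2.46 on the log2 scale while FSHR, CYP19A1 and FOXL2 fell by 3.55, 3.45 and 2.99, with limma adjusted p of 0.00704 or lower. The fall of CYP19A1 is a mean over unlike arrays. C2 replicates 3 and 4 read 2.34 and 2.43, within the C1 range of 1.89 to 4.79, and replicates 1, 2 and 5 read -3.38, -1.15 and -3.74. The CYP19A1 call was lost without any 1 of C2 replicates 1, 2 and 5 or of C1 replicates 1, 3, 4, 5 and 6, where the fall lay between 2.69 and 3.58.

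A level is the log2 of the deposited signal minus the array's median, so 0 is the median probe of an array. Levels of different probes are not compared, since each probe has its own affinity. The summed level of a marker list is the log2 of the sum of its unlogged levels, so its brightest probes weigh most. A probe was valid when it was present in every stage on 80% or more of its arrays, and a difference was called when its limma adjusted p over all valid probes was under 0.01. GJA1, GJA4, GJB1 and GJC1 were valid. The other 5 probes were not, and their p-values come from the same model over all 21475 probes without a filter. Each array had between 5 and 8 of the 9 connexin probes well above background, from 5 to 7 on NC1 arrays, from 6 to 7 on C1 arrays and from 6 to 8 on C2 arrays.

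**Figure D1:**
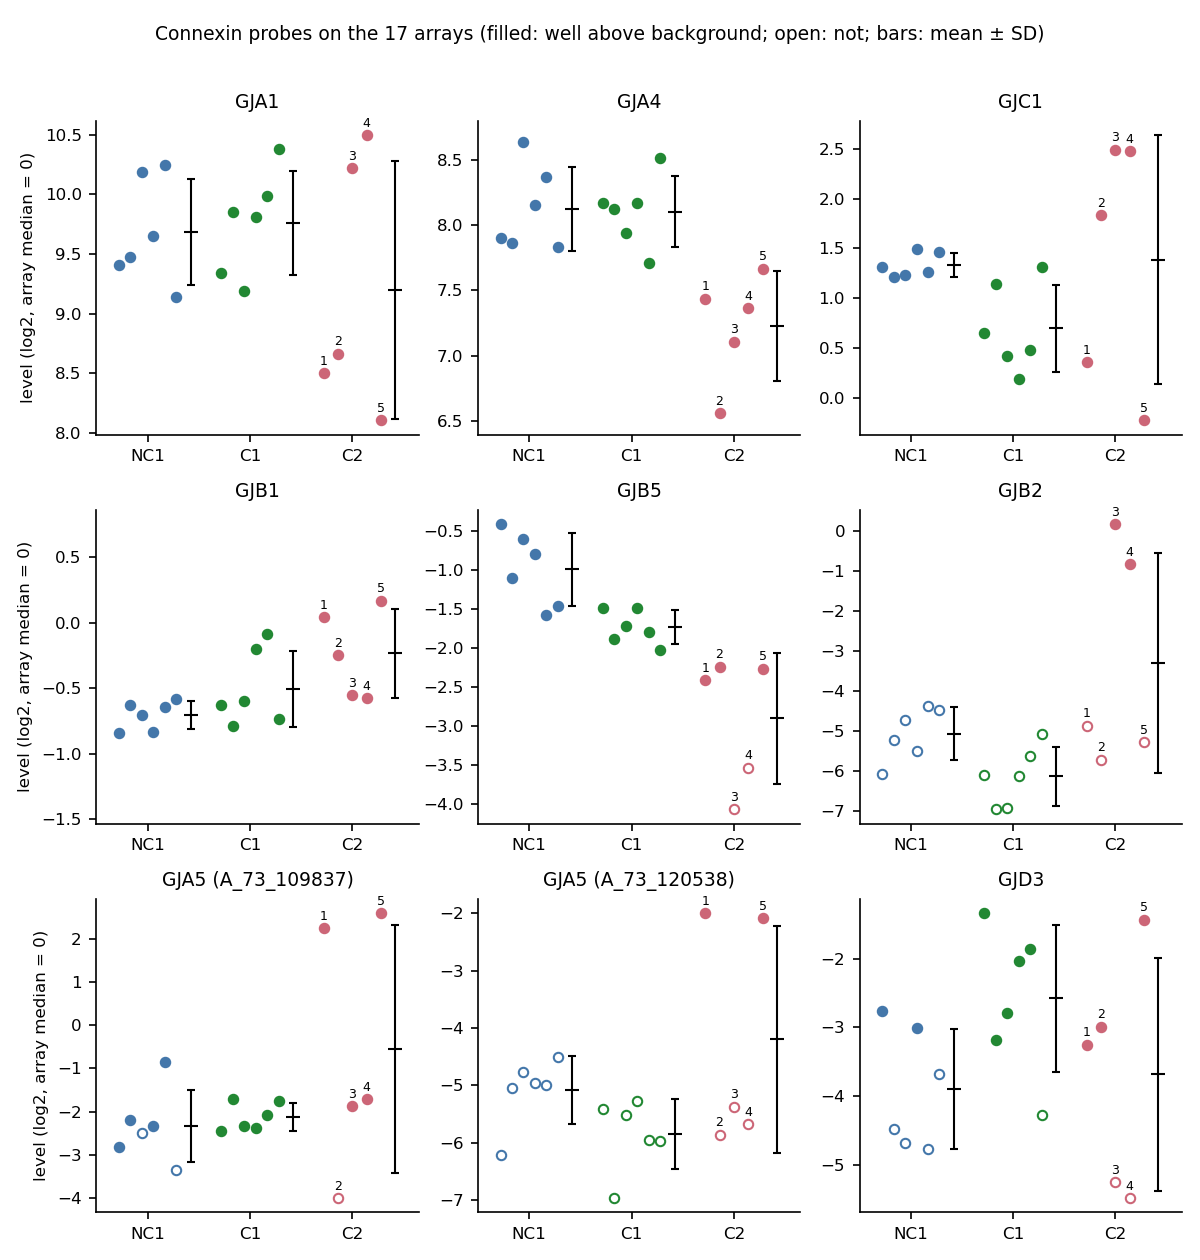
Level of each connexin probe on the 17 arrays (log2, array median at 0), 1 panel per probe, with filled points well above background, open points not, C2 points numbered by replicate, and bars for mean ± SD of 6 NC1, 6 C1 and 5 C2 arrays. The 5 C2 levels of GJA4 lie between 6.56 and 7.67, below every C1 level, while those of GJA1 split into 8.10 to 8.66 for replicates 1, 2 and 5 and 10.22 to 10.50 for replicates 3 and 4.

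GJA4, the connexin of the oocyte-facing junctions, was lower in the expanded cumulus, and it was the 1 of the 4 valid connexins whose difference was called. Over all valid probes, 28.1% were called between C2 and C1 and 12.8% were called lower, and 28.6% were called in the test among the 3 stages, where GJA4 was again the 1 of 4 (limma adjusted p = 0.00315). That last call was lost without C2 replicate 2 or 3. The GJA4 levels were 7.90, 7.86, 8.63, 8.15, 8.36 and 7.83 in NC1 replicates 1 to 6. They were 8.17, 8.12, 7.94, 8.16, 7.71 and 8.51 in C1 replicates 1 to 6. They were 7.44, 6.56, 7.11, 7.37 and 7.67 in C2 replicates 1 to 5. All 5 C2 arrays were below all 6 C1 arrays and below all 6 NC1 arrays, a pattern seen in 11.0% of valid probes against C1 and 10.3% against NC1, and the 2 immature stages overlapped.

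The level of GJA4 was 8.12 ± 0.32 (SD, n = 6) in NC1, 8.10 ± 0.27 (n = 6) in C1 and 7.23 ± 0.42 (n = 5) in C2. The C2 level was 0.87 lower than that of C1 on the log2 scale (SE 0.21, 95% interval -1.32 to -0.43, limma adjusted p = 0.00311). The exact permutation test, 2-sided, gave p = 0.00433, the smallest that 5 against 6 arrays can give. Against NC1 the C2 level was 0.90 lower (SE 0.21, 95% interval -1.34 to -0.45, limma adjusted p = 0.00263, exact permutation p = 0.00433), and in this comparison 28.1% of valid probes were called, with 12.5% lower. Both differences are measured per unit of total RNA, so fewer cells with GJA4 transcripts and less GJA4 RNA per cell cannot be told apart.

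The fall of GJA4 did not follow the split among the C2 arrays. It was 0.91 on the first scan day, with 3 arrays a side, and 0.84 on the second, with 2 against 3. On the 5 slides with a C2 array, the C2 level was below the C1 level on 5 of 5, by 0.50 to 1.15 with a median of 1.06. With the close C2 pairs averaged the fall was called too. It was also called without any 1 of the 17 arrays, where it lay between 0.71 and 0.98. With normexp background correction it was called against C1 and not against NC1, where it was 0.66 with an adjusted p of 0.0275. With the replicate number as a block, which does not pair the samples, it was not called in either comparison. It was then 0.86 against C1 (limma adjusted p = 0.0132) and 0.88 against NC1 (limma adjusted p = 0.0117).

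Oocyte transcripts were lower in summed level in C2 than in NC1, with overlap between C2 and C1. The summed level of 10 oocyte markers had medians of 6.40 in NC1 (5.89 to 7.13), 4.43 in C1 (2.58 to 5.76) and 2.86 in C2 (1.75 to 2.99), and 8 to 9 of the 10 were well above background on NC1 arrays, 5 to 10 on C1 arrays and 3 to 5 on C2 arrays. Of the markers, BMP15, ZP2 and FIGLA were well above background on no C2 array and DAZL on no NC1 or C2 array. Of the 3 markers with a valid probe, none was called between C1 and C2, where the median difference was -1.04 and 28.1% of all valid probes were called. None was called between NC1 and C1 either. All 3 were called lower in C2 than in NC1, beside 12.5% of all valid probes. GJA4 had medians of 8.02, 8.14 and 7.37 in these stages and differed by -0.02 between C1 and NC1 (SE 0.20, limma adjusted p = 0.99). The part of oocyte transcripts in the C2 difference was not tested.

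GJA1, the most studied cumulus connexin, was well above background on all 17 arrays and was called in none of the comparisons. Its levels were 9.40, 9.47, 10.18, 9.65, 10.25 and 9.14 in NC1 replicates 1 to 6. They were 9.34, 9.85, 9.19, 9.81, 9.98 and 10.38 in C1 replicates 1 to 6. They were 8.50, 8.66, 10.22, 10.50 and 8.10 in C2 replicates 1 to 5. C2 replicates 1, 2 and 5 were below every NC1 and C1 array, replicate 4 was above all of them, and replicate 3 lay within their range.

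The SD of GJA1 was accordingly 1.08 in C2 against 0.44 in NC1 and 0.44 in C1, and 87.7% of valid probes had a smaller SD than GJA1 within C2. The mean level was 9.20 ± 1.08 in C2 (n = 5) and 9.76 ± 0.44 in C1 (n = 6), a difference of -0.56 (SE 0.38, 95% interval -1.37 to 0.25, limma adjusted p = 0.26, exact permutation p = 0.26). The interval reaches from a fall larger than that of GJA4 to a small rise. The difference was -1.48 between 3 C2 and 3 C1 arrays of the first scan day and 0.74 between 2 C2 and 3 C1 arrays of the second. The C2 arrays of the second day were the close pair of replicates 3 and 4, so the day and this pair cannot be told apart.

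Against NC1 the GJA1 level of C2 differed by -0.49 (limma adjusted p = 0.335), and between C1 and NC1 by 0.07 (95% interval -0.69 to 0.84, limma adjusted p = 0.978). The 2 C2 arrays with the high GJA1 levels were those with the highest summed levels of the epithelial marker genes. On C2 replicates 3 and 4, 8 of 8 epithelial markers were well above background, with summed levels of 8.13 and 7.57, and on the other 15 arrays 5 to 7 were, with summed levels from 3.64 to 4.26. Of these markers, CDH1 read -0.35 and -0.60 on C2 replicates 3 and 4, below its C1 range of -0.09 to 0.78. The part of the epithelial markers in the GJA1 levels was not tested.

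**Figure D2:**
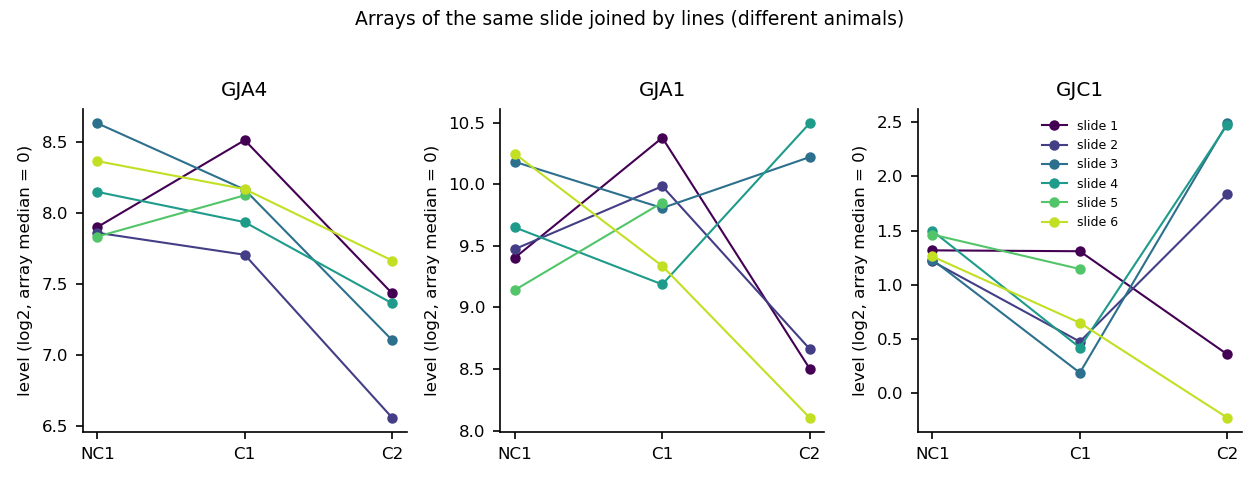
Levels of GJA4, GJA1 and GJC1 (log2, array median at 0) at the 3 stages, with arrays of the same slide joined by a line and each array from another animal. All 5 GJA4 lines end lower at C2 than at C1, by 0.50 to 1.15, while the GJA1 and GJC1 lines from C1 to C2 go both ways.

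GJC1, connexin 45, showed a split of the same kind among the C2 arrays, with replicate 2 on the other side. Its levels were 1.32, 1.22, 1.23, 1.50, 1.26 and 1.46 in NC1 replicates 1 to 6. They were 0.65, 1.15, 0.42, 0.19, 0.48 and 1.31 in C1 replicates 1 to 6. They were 0.36, 1.84, 2.49, 2.48 and -0.23 in C2 replicates 1 to 5. C2 replicates 2, 3 and 4 were above every NC1 and C1 array, replicate 5 was below all of them, and replicate 1 was within the C1 range.

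The 6 calf arrays were close together, with an SD of 0.12 that only 1.92% of valid probes undercut, and 5 of the 6 C1 arrays were below all of them. C1 was lower than NC1 on 6 of 6 slides, by 0.01 to 1.08. The difference of -0.63 (SE 0.38, 95% interval -1.44 to 0.17) was not called (limma adjusted p = 0.639, exact permutation p = 0.0108), and 0.0577% of valid probes were called between C1 and NC1. From C1 to C2 the GJC1 level differed by 0.69 (SE 0.40, limma adjusted p = 0.182), with -0.16 on the first scan day and 1.90 on the second, and from NC1 to C2 by 0.06 (SE 0.40, limma adjusted p = 0.929).

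GJB1 was well above background on all 17 arrays and was called in none of the comparisons. Its level was -0.71 ± 0.11 in NC1 (n = 6), with single arrays from -0.84 to -0.58, and -0.51 ± 0.29 in C1 (n = 6), from -0.79 to -0.09. C2 replicates 1 to 5 had 0.04, -0.24, -0.55, -0.58 and 0.17. All 5 C2 arrays were above all 6 NC1 arrays, as for 10.6% of valid probes, though replicates 3 and 4 were above the highest calf array by little, and C2 and C1 overlapped.

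The C2 mean of GJB1 was 0.47 above that of NC1, short of the threshold (SE 0.18, 95% interval 0.09 to 0.85, limma adjusted p = 0.0444, exact permutation p = 0.00433). From C1 to C2 the difference was 0.27 (SE 0.18, 95% interval -0.11 to 0.65, limma adjusted p = 0.242). The replicates with the higher GJB1 level, 1 and 5, were the 2 with the lowest GJA1 and GJC1 levels.

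GJB5 had its highest levels in the calf samples and its lowest in C2. Its levels were -0.41, -1.10, -0.61, -0.79, -1.57 and -1.47 in NC1 replicates 1 to 6. They were -1.48, -1.89, -1.72, -1.49, -1.79 and -2.03 in C1 replicates 1 to 6. They were -2.41, -2.24, -4.07, -3.54 and -2.27 in C2 replicates 1 to 5. All 5 C2 arrays were below all others, and replicates 3 and 4 were not well above background, which kept the probe from being valid. The share of probes with this pattern was taken over valid probes alone, at 11.0% against C1 and 10.3% against NC1.

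Over all probes without a filter, where 20.5% were called between C2 and NC1 and 9.79% were lower, GJB5 fell by 1.91 against NC1 (SE 0.32, 95% interval -2.59 to -1.24, limma adjusted p = 0.000159, exact permutation p = 0.00433). This was called under every alternative, but its size moved with the background handling, to 0.69 under normexp background correction. On the first scan day, whose 3 C2 arrays were all well above background, the fall was 1.28 against NC1 and 0.54 against C1. Against C1, where 21.2% were called and 9.97% were lower, GJB5 fell by 1.17 (SE 0.32, limma adjusted p = 0.00889, exact permutation p = 0.00433). This call was lost without any 1 of the 6 C1 arrays, of NC1 replicates 2, 3 and 4 or of C2 replicates 3 and 4, where the fall lay between 0.88 and 1.23, with the close C2 pairs averaged (1.06), with slide as a block (1.23) and with normexp background correction (0.21, adjusted p = 0.497). From NC1 to C1 the difference was -0.74 (95% interval -1.38 to -0.10, limma adjusted p = 0.163), with 4 of 6 C1 arrays below all calf arrays, where 0.116% of all probes were called.

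GJB2 was not well above background on any of the 12 immature arrays. In C2 it was well above background on 2 of 5, at 0.18 in replicate 3 and -0.82 in replicate 4, against -4.87, -5.72 and -5.28 in replicates 1, 2 and 5. The probe thus read signal on the same 2 arrays that had the high epithelial sums. The other 3 C2 arrays lay near the immature ones, which ran from -6.96 to -4.38.

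Where a stage gave no array above background, a fold was formed from the mean of all arrays of the brighter stage. It was set against, per array of the dimmer stage, the higher of the probe's own signal and the lowest signal of any probe well above background. This fold is no lower bound, since arrays of the brighter stage that were not well above background entered at their signal. For GJB2 the value of the dimmer stage was its own mean, -6.14 in C1 and -5.07 in NC1. On this measure GJB2 was 7.14-fold higher in C2 than in C1 (adjusted p = 0.0167 by limma over all probes) and 3.40-fold higher than in NC1 (adjusted p = 0.136). Both folds rest on replicates 3 and 4, and with no C1 or NC1 array well above background they do not order C1 and NC1. The C2 minus C1 difference was 0.31 on the first scan day, which did not hold these arrays, and 6.36 on the second. With scan day as a block or without C2 replicate 2 or 5, the difference against C1 passed the threshold, at 2.95, 3.44 and 3.33.

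GJA5, connexin 40, was high on the other pair of C2 arrays with both of its probes. Probe A_73_109837 read 2.24 and 2.60 in C2 replicates 1 and 5, -1.88 and -1.72 in replicates 3 and 4 and -4.00, not well above background, in replicate 2. In NC1 it ran from -3.34 to -0.85, with 4 of 6 arrays well above background, and in C1 from -2.45 to -1.71, with 6 of 6. Replicates 1 and 5 were therefore more than 3 log2 units above every immature array, and the others were not above them.

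Probe A_73_120538 was well above background on C2 replicates 1 and 5 alone, at -1.99 and -2.09, with -5.86, -5.37 and -5.67 on replicates 2, 3 and 4 and -6.97 to -4.51 on the immature arrays. On the measure used for GJB2, again no lower bound, it was 3.12-fold higher in C2 than in C1 and 1.80-fold higher than in NC1. Neither probe was called, with differences against C1 of 1.56 (SE 0.88, limma adjusted p = 0.179) for the first and 1.65 (SE 0.64, limma adjusted p = 0.0557) for the second over all probes. The leukocyte markers had their highest C2 sums on the same 2 arrays, 4.71 and 5.15 against 3.59 to 3.93 on the other 3, where NC1 had 3.36 to 4.23 and C1 3.02 to 4.07, with 7 and 8 of 8 markers well above background there and 6 to 7 elsewhere in C2. Of the leukocyte markers, CD14 read 1.34, 0.26, 2.02, 2.08 and 1.61 in C2 replicates 1 to 5, highest on replicates 3 and 4. The 7 endothelial markers summed to 2.90 and 2.74 on replicates 1 and 5 and to 1.56, 3.33 and 3.54 on replicates 2, 3 and 4. Of these markers, KDR alone read -0.19, 0.98, 3.21, 3.42 and 0.64 in C2 replicates 1 to 5. The mean level of the 7 was -2.03 and -1.74 on replicates 1 and 5 and -2.57, -2.27 and -2.14 on replicates 2, 3 and 4. The part of the leukocyte and endothelial markers in the GJA5 levels was not tested.

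GJD3, which the array calls GJC1, was near the limit of detection. Of its arrays 2 of 6 in NC1, 5 of 6 in C1 and 3 of 5 in C2 were well above background, with levels from -4.76 to -2.77, from -4.28 to -1.34 and from -5.49 to -1.43. The C1 mean was 1.32 above that of NC1 (SE 0.64, limma adjusted p = 0.254) and 1.10 above that of C2 (SE 0.67, limma adjusted p = 0.21), and neither was called.

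**Figure D3:**
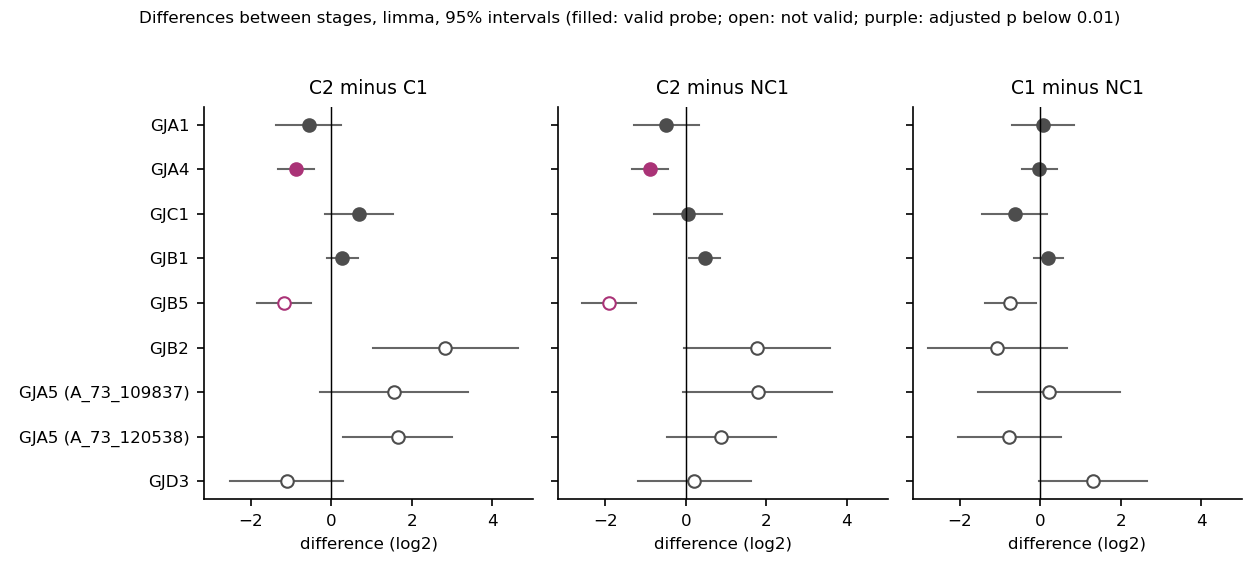
Difference between stages for each connexin probe (log2) with 95% intervals from limma over 6 NC1, 6 C1 and 5 C2 arrays, with filled points for valid probes, open points for probes tested over all probes without a filter, and purple for an adjusted p below 0.01. GJA4 and GJB5 lie below 0 in both comparisons with C2, and the interval of GJA1 against C1 runs from -1.37 to 0.25.

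**Figure D4:**
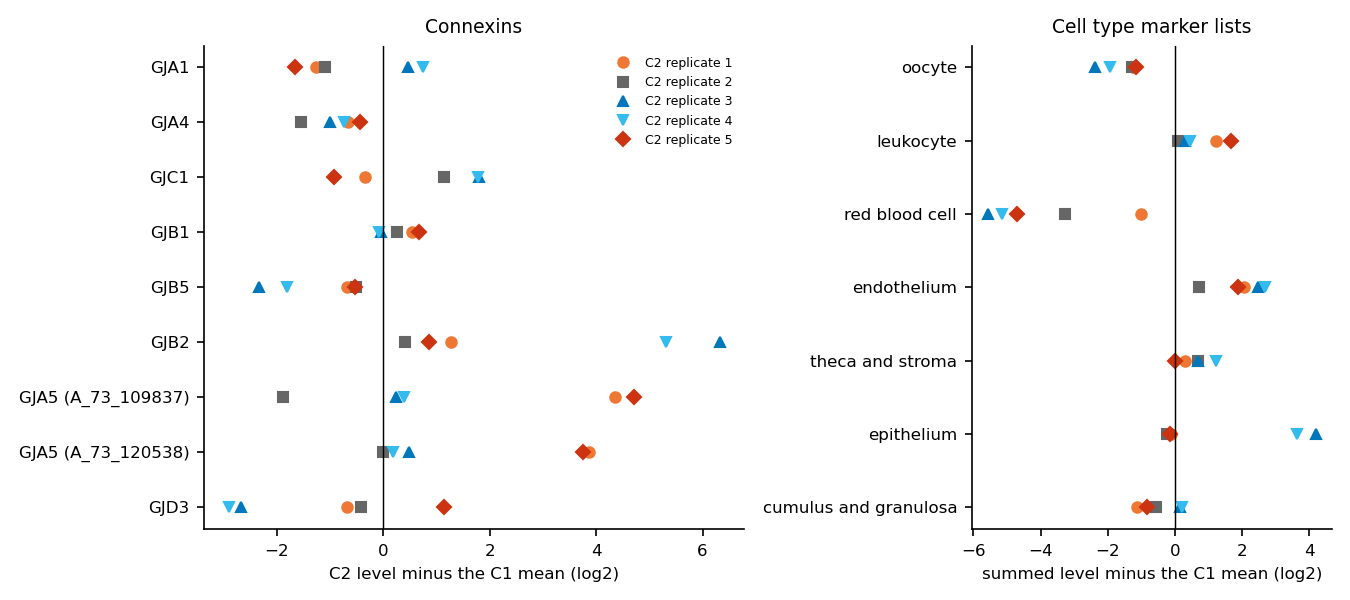
Level of each connexin on the 5 C2 arrays minus the mean of the 6 C1 arrays (log2, left), and the same for the summed level of 7 cell type marker lists (right), with 1 symbol per C2 replicate. Replicates 3 and 4 stand high for GJA1, GJC1, GJB2 and the epithelial markers, and replicates 1 and 5 for GJA5.

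Of other channel genes, PANX2, a pannexin, which forms channels in a single membrane, fell by 1.02 from C1 to C2 (SE 0.21, limma adjusted p = 0.000936), with 4 of 5 C2 arrays below all C1 arrays, and by 0.49 under normexp background correction, where it was not called.

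GJB7, GJC3 and PANX3 were well above background on none of the 17 arrays. GJB6 reached that level on 0 of 6 NC1, 3 of 6 C1 and 1 of 5 C2 arrays, GJD2 on 4, 6 and 4, GJD4 on 1, 4 and 2 and PANX1 on 2, 5 and 3.

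Connexin channels are carried to the membrane, anchored there and taken back by a set of partner proteins, and 21 of the 24 such scaffold, trafficking and turnover genes listed had a valid probe. Between C1 and C2, 12 rose, 3 fell and 6 were not called, with a median difference of 0.76 against 0.02 over all valid probes, of which 15.3% were called higher. CAV1 and CAV2, the caveolins of membrane rafts where connexin 43 is found, rose by 6.91 (SE 0.51, limma adjusted p = 8.36e-09) and 3.53 (SE 0.43, limma adjusted p = 3.64e-06). The CAV1 level was -0.36 ± 1.25 in C1 (n = 6) and 6.55 ± 0.61 in C2 (n = 5), with no C2 array below 5.73. EZR, ezrin, which ties membrane proteins and protein kinase A to actin, rose by 2.51 (SE 0.35, limma adjusted p = 1.44e-05).

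CCN3, a matrix protein that binds connexin 43, fell by 2.51 (SE 0.41, limma adjusted p = 7.74e-05). CTNNB1, the adherens junction protein beta-catenin, fell by 1.27 (SE 0.29, limma adjusted p = 0.00212). UBQLN4, which leads connexin 43 to the proteasome, fell by 0.82 (SE 0.18, limma adjusted p = 0.00105) with its brighter probe, while its other valid probe differed in call.

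Connexin 43 is opened and closed by phosphorylation, and 17 of 21 listed kinases and phosphatases that act on it had a valid probe. Of these, 6 rose, 1 fell and 10 were not called between C1 and C2, with a median of 0.56, beside 15.3% called higher and 12.8% called lower over all valid probes. PRKACB, a catalytic subunit of protein kinase A, rose by 1.20 (SE 0.21, limma adjusted p = 0.000142) and PRKCD, protein kinase C delta, by 1.12 (SE 0.16, limma adjusted p = 2.44e-05). PRKCE, protein kinase C epsilon, fell by 1.17 (SE 0.27, limma adjusted p = 0.00171).

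Of 40 receptor and second messenger genes of the gap junction pathway, 31 had a valid probe, and 9 rose, 2 fell and 20 were not called, with a median of 0.20, beside the same 15.3% higher and 12.8% lower over all valid probes. The adenylyl cyclases, which make cyclic AMP, went apart, as ADCY7 rose by 2.80 (SE 0.53, limma adjusted p = 0.000388) and ADCY1 fell by 5.64 (SE 0.64, limma adjusted p = 1.6e-06). MAP2K1, the kinase MEK1, rose by 2.26 (SE 0.25, limma adjusted p = 1.33e-06), and ITPR1, a calcium release channel, by 1.71 (SE 0.30, limma adjusted p = 0.00016). EGFR, the receptor of the EGF-like factors, fell by 1.22 (SE 0.30, limma adjusted p = 0.00323), a call lost without C2 replicate 3 (1.04), with the close C2 pairs averaged (1.08) and with normexp background correction (0.35). Without C2 replicate 3, 7 genes of this list were called in place of 11.

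Between NC1 and C2 the counts were 9 higher and 4 lower of 21 for the scaffold list, 5 and 1 of 17 for the kinases and phosphatases and 8 and 1 of 31 for the receptors and second messengers, with medians of 0.65, 0.36 and 0.12 beside 0.11 over all valid probes, of which 15.5% were called higher. PANX2 was called lower, by 0.77, a call lost without any 1 of the 6 NC1 arrays, C1 replicate 4 or C2 replicates 1 to 4 (0.66 to 0.81), with no filter, with the close C2 pairs averaged (0.79) and with normexp background correction (0.38). Between NC1 and C1 no gene of the 3 lists was called by limma. These comparisons share their arrays and were not set against each other by a test.

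**Figure D5:**
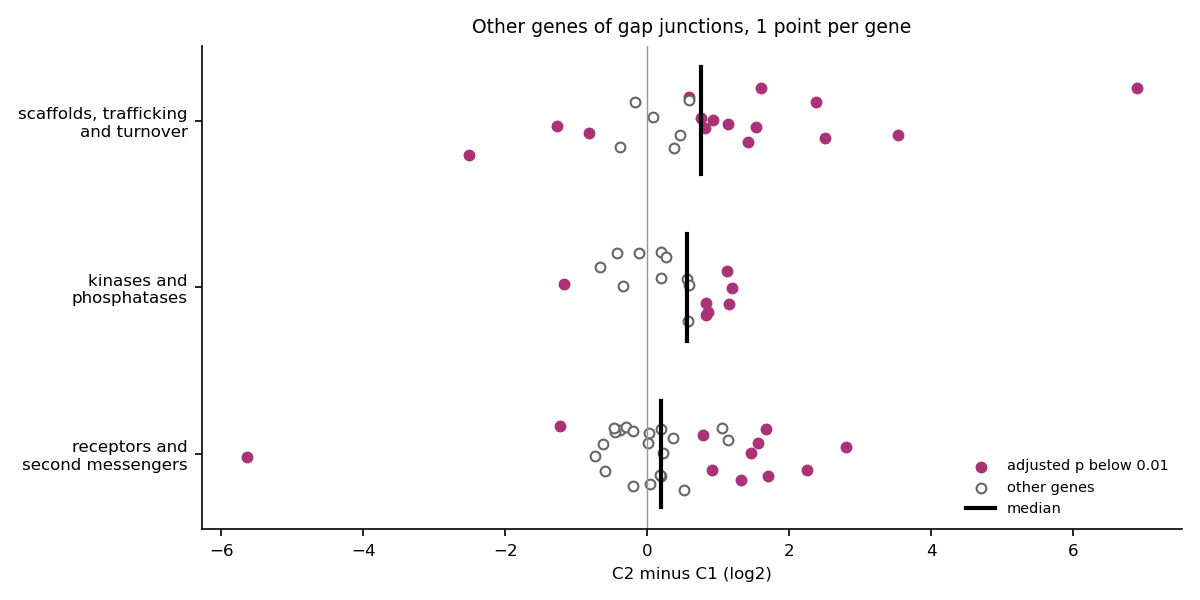
Difference between C2 and C1 (log2) of each gene with a valid probe in the 3 lists of other gap junction genes, with purple for an adjusted p below 0.01, open points for the rest and a black bar for the median of each list. The scaffold list has its median at 0.76, and its extreme points are CAV1 at 6.91 and CCN3 at -2.51.

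Over the 17 arrays, the genes with the pattern most like each valid connexin were ranked by Pearson's r among 10606 genes with a symbol, as a description in which all points share arrays and stages. The genes nearest to GJA4 were RPL15 (r = 0.984), a protein of the large ribosomal subunit, ENDOG (r = 0.976), a mitochondrial nuclease, and GPRASP2 (r = 0.975). They were called lower in C2 than in C1, by 0.96, 1.21 and 1.00 in the means. This is no separate result, since they were picked by likeness to GJA4 over arrays that include the stage difference. GPRASP2 lost its call without any 1 of C1 replicates 2, 3, 4 and 6 or C2 replicates 1, 2 and 3 (0.82 to 1.02), with the close C2 pairs averaged (1.12) and with no filter (adjusted p = 0.0106).

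The genes nearest to GJA1 were RHNO1 (r = 0.931), UBE2S (r = 0.924), a ubiquitin-conjugating enzyme of mitosis, and ANO4 (r = 0.906). UBE2S read 7.63, 8.16, 9.25, 9.41 and 7.76 in C2 replicates 1 to 5, high on replicates 3 and 4 as GJA1 was, and was not called between C2 and C1 (-0.42, limma adjusted p = 0.287). The nearest to GJC1 were TES (r = 0.946), NXT2 (r = 0.916) and CRELD2 (r = 0.912), of which TES, the focal adhesion protein testin, read 3.82, 5.77, 7.09, 7.18 and 3.79 in C2 replicates 1 to 5. The nearest to GJB1 were ZSWIM1 (r = 0.957), SAMD4A (r = 0.929) and ITGA7 (r = 0.919), and none of these 3 was called between C2 and C1.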

How the data were processed

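The authors deposited spot intensity values of 17 one-colour Agilent bovine arrays, background-subtracted and detrended by Feature Extraction 10.5.1.1, with the scanner's detection flags as other columns, and a table of median-scaled log2 values with the probe sequences. The genome build is not given in the sources used here, so no coordinates are given. Spots of a probe were averaged without non-uniform and outlier spots, and each array's log2 median over non-control probes was subtracted. Probes were valid when present (at least 50% of spots well above background) in every stage on 80% or more of its arrays. The 3 stages were fitted in 1 model (limma 3.58.1, R 4.3.3) with Benjamini-Hochberg adjustment. Exact permutation tests were 2-sided. No spot was saturated. The number of arrays limits the precision. The p-values set a stage difference against the spread between the arrays of a stage, which are taken as independent. The fit was tested on simulated data.

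Members, gene lists and tests were chosen with earlier results of these data known, and the lists are no independent support. Named are all member probes, up to 3 genes with the largest rise and fall from C1 to C2 per list among those called, and the 3 genes nearest in pattern to each valid connexin, each gene by its brightest valid probe. The connexins and pannexins outside the chosen set without a valid probe and the marker genes without one were named after their values were seen. Some connexins and other genes are not reported here. Current names come from RefSeq (ARS-UCD2.0) through gene IDs, symbols and synonyms. Same-numbered samples were not treated as pairs, because each stage used other animals and the deviations of same-numbered arrays correlated between -0.32 and 0.25. Alternatives were other scalings, normexp background correction, other filters, flagged spots kept, the deposited table, slide, scan day or replicate number as a block, and each array left out.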

Additional observations from a re-analysis of the deposited data

Results flagged for a closer look

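Single arrays stood far from the rest of their stage for 7 of the 141 groups of a probe and a stage that were examined, beside about 1 in 20 that chance flags. For a connexin of the chosen set this was GJA5 (A_73_120538) in NC1 replicate 1, at -6.22 against -5.04 to -4.51 on the other calf arrays, where none was well above background. UBQLN4 was highest in C2 replicate 4, at 3.87 against 3.35 to 3.49. ADCY7 was lowest in C2 replicate 2, at -3.12 against 0.03 to 0.56, and without that replicate it was also called against NC1, with a rise of 2.08. In NC1 replicate 3, PRKCE was highest at 4.46 against 3.19 to 3.62, ITPR1 was highest at 4.69 against 3.78 to 3.95, and LUM, a stromal marker, was lowest at 1.96 against 3.87 to 4.70. HBA, a red blood cell marker, was highest in C1 replicate 1, at 8.01 against 6.18 to 6.60.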

How the results depend on the processing

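The counts of connexin probes called, 1 of 4 valid probes (GJA4) in C2 against C1, in C2 against NC1 and among the 3 stages and 0 in C1 against NC1, kept their value under most alternatives. With the replicate number as a block the count was 0 in all 3 comparisons that had called GJA4, whose adjusted p was then 0.0132 against C1 and 0.0117 against NC1 with differences of -0.86 and -0.88, and the calls of GJB5 (-1.25), CYP19A1 (-3.55) and GPRASP2 (-0.97) against C1 were lost too, while the calls over all valid probes went from 3892 to 3203 and from 3894 to 3088. With normexp background correction the count was 0 against NC1. With probes present in any 2 stages, or with no filter, it was 2 in these comparisons (GJA4 and GJB5). Leaving out 1 array gave 1 against C1, 1 against NC1, and 0 to 1 among the 3 stages, with 0 without C2 replicate 2 or 3. With the close C2 pairs averaged GJA4 was called in all 3, while 2989 probes were called against C1 in place of 3892. Of 3903 differences of a named probe recomputed under an alternative, 103 lost and 15 gained the threshold, and none that was called turned its sign. Of 252 counts of the lists, 3 moved by over 1.5 times, all against C1: the kinases and phosphatases (4 in place of 7) and the receptors and second messengers (7 in place of 11) with normexp, and the latter without C2 replicate 3 (7). Scaling by the 75th percentile moved the median of all valid probes in C2 against C1 from 0.02 to -0.11, and GJA4 fell by 1.00 there.

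Where arrays were not well above background (GJB2, GJA5, GJB5, GJD3), the size of a fitted difference depends on how background was handled. The 5 C2 animals came as 2 close pairs and 1 further array, so the C2 spread can rest on fewer independent patterns than arrays, as for GJA1, GJC1, GJA5 and GJB2. The closeness was measured over all valid probes. The limma and permutation p-values of every comparison with C2, also those of GJA4 and GJB5, take the 5 arrays as independent.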

Other observations

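The remaining marker lists gave these values. Red blood cell markers summed to 4.79 to 7.01 in NC1, 6.18 to 8.01 in C1 and 1.12 to 5.67 in C2, and HBA fell by 4.01 from C1 to C2 (SE 0.65, limma adjusted p = 7.48e-05). Most of each sum was HBA, so the sums and HBA are not separate observations. HBA read 8.01 in C1 replicate 1 and 0.91 in C2 replicate 3, beside sums of 8.01 and 1.12. Theca and stroma markers summed to 7.03 to 8.05 in NC1, 7.48 to 8.13 in C1 and 7.83 to 9.04 in C2, and of 6 such genes with a valid probe LUM was called higher in C2 than in C1, by 3.79 (SE 0.48, limma adjusted p = 5.41e-06), while 5 were not called and the median was -0.49. Endothelial markers summed to 0.85 to 1.72 in NC1, 0.73 to 1.04 in C1 and 1.56 to 3.54 in C2, and of 6 with a valid probe KDR rose by 3.58 (SE 0.50, limma adjusted p = 1.68e-05), while 5 were not called, the median was -0.08 and CDH5 was well above background on no array. Of 6 leukocyte markers with a valid probe CD14 rose by 1.22 (SE 0.29, limma adjusted p = 0.00229), a call lost with the close C2 pairs averaged (1.02), with 5 not called and a median of 1.40, and of 5 epithelial markers CDH1 fell by 1.03 (SE 0.19, limma adjusted p = 0.000335), also on the 2 arrays with the high epithelial sums, with 4 not called and a median of 0.76.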
